A study of Mus musculus with 36 samples.

Results

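Livers collected 2 h before lights-on (ZT22) and 2 h after it (ZT2) were compared. Zeitgeber time (ZT) counts the hours from lights-on in a cycle of 12 h light and 12 h dark. The comparison took 12 of the 36 liver libraries of the series, 6 at ZT22 and 6 at ZT2, chosen by the sampling time in their titles, with 3 THRB WT and 3 THRB KO mice at each time. THRB WT mice were heterozygous controls (THRB+/-) and THRB KO mice were THRB-/-, a systemic knockout of both isoforms of thyroid hormone receptor beta by an allele that impairs its DNA binding, so that every mouse carried at least 1 copy of the B6.129S1-Thrbtm1Df/J allele. All were males of 2 to 3 months on the C57Bl/6NCrl background, fed normal chow at will, and each mouse was culled at a single time, so that no mouse was followed through lights-on.

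The liver clock is a feedback loop in transcription. BMAL1 (gene Arntl) and CLOCK bind E-boxes and switch on the Per and Cry repressors, the REV-ERB receptors (Nr1d1 and Nr1d2) and output factors such as Dbp, Tef and Hlf. REV-ERBs in turn silence genes that ROR receptors activate through a shared element, and PER and CRY proteins shut down BMAL1 and CLOCK. In nocturnal animals such as mice, lights-on also marks the passage from the active and feeding phase to rest, and feeding and body temperature act on the liver's rhythms of bile acid, lipid and chaperone genes.

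Of 17994 genes with at least 100 counts over the 36 libraries, 197 were called at an adjusted p below 0.05 by the quasi-likelihood test of edgeR with genotype as a covariate. At ZT2, 74 genes were higher, 0.411% of those tested, and 123 were lower, 0.684%. Most changes were small. The median size of the log2 fold change among the called genes was 0.49, and 8 of the higher and 30 of the lower genes changed at least 2-fold. At an unadjusted p below 0.05 there were 2344 genes. The values of the 6 livers at each time did not overlap for 268 genes, 1.49% of those tested, and 131 of these were called. Of the 197 called genes, 58 were called in all 12 fits that left out a library in turn. The number called varied with the library left out. It was 67 without THRB KO ZT2 c, 84 without THRB WT ZT22 b, 87 without THRB WT ZT2 c, 88 without THRB KO ZT2 a, 89 without THRB KO ZT22 c, 90 without THRB WT ZT22 a, 91 without THRB WT ZT2 a, 100 without THRB WT ZT22 c and 125 without THRB KO ZT22 a. It was 133 without THRB WT ZT2 b, 168 without THRB KO ZT2 b and 197 without THRB KO ZT22 b. Each of these fits also had 1 mouse fewer. The letters tell the 3 mice of a group apart. Genes named below with a count of 12 of 12 kept their call in all of these fits.

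Libraries held between 30281016 and 40322624 counts, with no difference in the mean of log2 total counts beyond the spread between mice (difference 0.016, exact two-sided permutation p = 0.846). The share of counts on the mitochondrial genome was 6.24% to 6.70% at ZT2 and 6.49% to 7.30% at ZT22 (exact permutation p = 0.0216), and the share of the 10 most abundant genes was 16.2% to 17.5% against 17.2% to 19.1% (exact permutation p = 0.0130). None of the tested markers of hepatocytes, Kupffer, endothelial or stellate cells, cholangiocytes, lymphocytes, neutrophils or red blood cells was called. With 0.411% called higher and 0.684% lower over all genes, 0 among so few markers says little. The median log2 fold change per type ran from -0.21 (endothelial cells) to 0.69 (neutrophils, 2 tested genes), with -0.15 for stellate cells and 0.03 for hepatocytes. The 7 hepatocyte markers together made up 82350 to 100900 CPM (counts scaled to a common library size) at ZT22 and 68920 to 84060 CPM at ZT2, and those of pancreatic acinar cells and adipocytes summed to at most 0.236 CPM in any liver, with 3 of 6 acinar markers at 0 in all. The part of these shifts in the results below was not tested. In whole liver, fewer cells of a type and less RNA per cell cannot be told apart. Thrb itself ran from 27.0 to 36.5 CPM in THRB WT and from 27.6 to 32.6 CPM in THRB KO livers. The allele impairs DNA binding, and a count over the whole gene did not tell the genotypes apart, so it is no check of the labels. Between ZT22 and ZT2 Thrb gave a log2 fold change of 0.05 (adjusted p = 0.856).

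Clock genes held the highest share of called members among the lists examined. Of 30 tested members of the lists of clock activators, repressors and outputs, 13 were called, 2 higher and 11 lower at ZT2, beside 0.411% higher and 0.684% lower over all genes, and 12 of these 13 calls held in every fit that left out a library. The REV-ERB genes rose, and Per2, Per3, Cry1, Ciart and 6 of 12 outputs were among those that fell, while Arntl and Clock stood at nearly the same mean level at both times. The promoters of 3 clock genes and a heat shock gene that fell are printed here because they hold known response elements of these families. They are 300-base RefSeq promoters on build GRCm38.p6, from 250 bases before the start site to 50 after it, with matches to the searched motifs in capitals. Ciart (chr3:95882179-95882478, minus strand) carried 3 matches to the E-box CACGTG, which begin at -116, -58 and -44 relative to the start site. Cry1 (chr10:85185005-85185304, minus strand) carried 1, at -60. In Per3 (chr4:151044616-151044915, minus strand) the capitals mark the D-box TTATGNAA, the element bound by DBP, TEF, HLF and NFIL3, at -205 and -158. In the small heat shock protein gene Hspb1 (chr5:135887669-135887968, plus strand) they mark the heat shock element GAANNTTC at -117 and -97.
Ciart: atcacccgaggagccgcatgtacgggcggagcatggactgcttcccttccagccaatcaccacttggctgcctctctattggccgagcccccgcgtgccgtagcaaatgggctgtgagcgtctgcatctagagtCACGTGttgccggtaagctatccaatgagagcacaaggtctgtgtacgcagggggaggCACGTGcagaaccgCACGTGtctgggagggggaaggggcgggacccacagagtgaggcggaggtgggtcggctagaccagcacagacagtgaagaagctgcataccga
Cry1: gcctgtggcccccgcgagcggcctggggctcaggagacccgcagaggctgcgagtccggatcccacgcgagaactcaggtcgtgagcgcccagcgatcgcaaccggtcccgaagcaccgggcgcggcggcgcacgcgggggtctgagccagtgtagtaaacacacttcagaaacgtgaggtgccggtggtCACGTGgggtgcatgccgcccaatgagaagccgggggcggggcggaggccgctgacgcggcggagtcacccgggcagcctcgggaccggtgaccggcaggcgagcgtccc
Per3: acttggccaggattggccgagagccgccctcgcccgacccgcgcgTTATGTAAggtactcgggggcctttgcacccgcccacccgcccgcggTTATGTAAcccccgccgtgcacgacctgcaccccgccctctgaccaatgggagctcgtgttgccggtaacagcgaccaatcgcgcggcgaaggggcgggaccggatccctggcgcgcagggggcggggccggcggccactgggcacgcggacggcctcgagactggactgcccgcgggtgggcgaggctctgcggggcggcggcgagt
Hspb1: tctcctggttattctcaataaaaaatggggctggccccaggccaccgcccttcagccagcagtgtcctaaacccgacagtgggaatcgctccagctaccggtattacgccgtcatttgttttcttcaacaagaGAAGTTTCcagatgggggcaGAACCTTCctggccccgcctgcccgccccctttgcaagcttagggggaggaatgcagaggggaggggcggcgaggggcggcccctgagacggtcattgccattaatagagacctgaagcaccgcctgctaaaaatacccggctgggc

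All motifs were searched on both strands, and the E-box and the heat shock element read the same on either strand. Shares are per gene, with a match in any promoter of the gene counted. An E-box was present in 8.09% of 27025 RefSeq genes, in 4 of the 9 clock repressors with a promoter in the table (Bhlhe41, Ciart, Cry1 and Per1), in 3 of 11 outputs (Lonrf3, Tef and Tspan4) and in 0 of 5 activators. Of these 7 genes, Ciart, Cry1, Tef and Tspan4 were called, all lower at ZT2. Of all 30 clock members 13 were called, 11 of them lower, and over all genes 0.684% were called lower and 0.411% higher. Whether the E-box bears on the falls was not tested. The D-box occurred in 3.99% of all genes and in Per1, Per3 and Noct of the clock lists. The REV-ERB and ROR element TAGGTCA, present in 2.97% of all genes, was found in Arntl, Nfil3 and Slc45a3, none of which was called. A D-box variant, TTACGNAA, was found in 0.707% of all genes and in none of these clock genes. No motif of the search matched the windows of Nr1d1, Nr1d2 or Usp2. A match is a string of letters and not a bound site.

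Nr1d1, which encodes the repressor REV-ERBα, showed the largest rise of all genes named by the rule. Its level was 1.53, 2.00 and 4.12 CPM (lowest, median and highest of 6 livers) at ZT22 and 31.7, 37.2 and 49.7 CPM at ZT2. Every ZT2 liver was thus several times above every ZT22 liver, in both genotypes. This was a log2 fold change of 4.07 ± 0.21 (± standard error here and below; adjusted p = 4.75e-07, 12 of 12 left-out fits), a 16.7-fold rise. Nr1d1 shares 1075 bases of its span with Thra, which lies on the other strand, and the libraries kept no strand. Thra itself stood at 18.6 CPM at ZT22 and 21.5 CPM at ZT2 and was not called (adjusted p = 0.424). Nr1d2, the gene of REV-ERBβ, went from 4.71, 7.66 and 11.3 CPM to 19.3, 22.9 and 36.5 CPM. The ranges did not overlap, and the log2 fold change was 1.68 ± 0.22 (adjusted p = 0.00197, 12 of 12).

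The activator genes Arntl, Clock, Npas2 and Rora did not pass the test. Arntl was at 26.5, 30.7 and 33.3 CPM at ZT22 and at 25.3, 30.5 and 34.7 CPM at ZT2, so that the ranges overlapped almost entirely (log2 fold change -0.01 ± 0.08, adjusted p = 0.965). Clock gave 36.5, 37.4 and 42.1 CPM against 36.5, 38.1 and 40.6 CPM (-0.00059 ± 0.057, adjusted p = 0.998). Npas2, a substitute for CLOCK, had log2 fold change 0.53 ± 0.28 with overlapping values (2.79 to 11.3 CPM and 7.25 to 16.5 CPM, adjusted p = 0.449). Rora, a ROR receptor gene, was at -0.03 ± 0.09 (adjusted p = 0.943).

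Among the repressors, Cry1 had the highest level at ZT22 of its 6 sampling times and fell by lights-on. It went from 37.0, 52.2 and 60.0 CPM to 16.7, 20.4 and 27.5 CPM, with no overlap (log2 fold change -1.27 ± 0.13, adjusted p = 0.000395, 12 of 12). Per2 fell from 24.1, 35.4 and 58.7 CPM to 9.81, 12.6 and 14.7 CPM (-1.63 ± 0.19, adjusted p = 0.0012, 12 of 12). All 6 ZT2 livers lay below all 6 ZT22 livers, and the spread at ZT22 was the wider. Per3 fell from 3.89, 8.02 and 10.1 CPM to 1.14, 1.66 and 3.001 CPM (-2.12 ± 0.26, adjusted p = 0.00121, 12 of 12). Ciart, also known as Chrono, a repressor of BMAL1 and CLOCK, was already low at ZT22 with 0.995, 1.37 and 2.64 CPM and lower at ZT2 with 0.173, 0.325 and 0.702 CPM (-2.10 ± 0.35, adjusted p = 0.0117, 12 of 12). Its promoter holds the 3 E-boxes shown above.

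Per1 was not called, and 1 liver decided this. Its level at ZT22 was 10.8, 15.3 and 24.3 CPM, and 5 of the ZT2 livers lay between 2.02 and 8.21 CPM, but THRB KO ZT2 b stood at 20.4 CPM. With all livers the log2 fold change was -1.30 ± 0.43 (adjusted p = 0.196), and without this liver it was -1.98 (adjusted p = 0.0142). The same liver was the highest at ZT2 for Noct, a rhythmic gene of the deadenylase family, at 32.2 CPM against a median of 7.61 CPM. Cry2 (-0.44 ± 0.12, adjusted p = 0.101), Bhlhe40 (-0.67 ± 0.23, adjusted p = 0.217) and Bhlhe41 (-0.58 ± 0.26, adjusted p = 0.365) had overlapping values and did not pass the test, and neither did the casein kinase genes Csnk1d (-0.10) and Csnk1e (0.05).

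Of 12 tested clock outputs, 6 were called, all lower, beside 0.684% lower and 0.411% higher over all genes. Usp2, a deubiquitinase gene, fell most, from 8.44, 16.3 and 20.5 CPM to 1.62, 2.67 and 4.15 CPM (log2 fold change -2.49 ± 0.23, adjusted p = 0.000128, 12 of 12). Wee1, the gene of the kinase that holds back mitotic entry, fell from 4.74, 7.10 and 8.46 CPM to 1.54, 2.32 and 3.02 CPM (-1.59 ± 0.16, adjusted p = 0.000395, 12 of 12). In both genes the times were fully separated. Tef, a PAR bZIP factor, fell from a median of 73.2 to 34.7 CPM, though THRB WT ZT22 c (44.5 CPM) lay below THRB WT ZT2 a (49.6 CPM) (-0.92 ± 0.15, adjusted p = 0.012, 12 of 12). Hlf, of the same family, fell slightly, from a median of 43.8 to 34.0 CPM (-0.34 ± 0.07, adjusted p = 0.0299, 3 of 12). Nampt, the rate-limiting enzyme of NAD salvage, fell from 54.8, 63.3 and 80.5 CPM to 29.2, 42.8 and 49.5 CPM (-0.66 ± 0.11, adjusted p = 0.0112, 12 of 12), and Tspan4, a tetraspanin, from 41.7, 50.3 and 55.0 CPM to 27.1, 29.9 and 32.3 CPM (-0.72 ± 0.08, adjusted p = 0.00053, 12 of 12). Dbp, which sat near its lowest level at both times (0.643 to 4.73 CPM at ZT2 and 1.603 to 3.92 CPM at ZT22), was not called (-0.77 ± 0.44, adjusted p = 0.502). Nfil3, the repressor of the same D-box, was at 0.38 ± 0.15 (adjusted p = 0.307). It reached 0.50 with an adjusted p of 0.0469 without THRB WT ZT2 a, the lowest ZT2 liver at 31.0 CPM. Upp2, Noct, Lonrf3 and Slc45a3 lay between -0.73 and -0.15 and did not pass. The spans of Per3 and Camta1, of Tspan4 and Chid1 and of Dbp and Sphk2 overlap, and none of these partners was called.

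**Figure D1:**
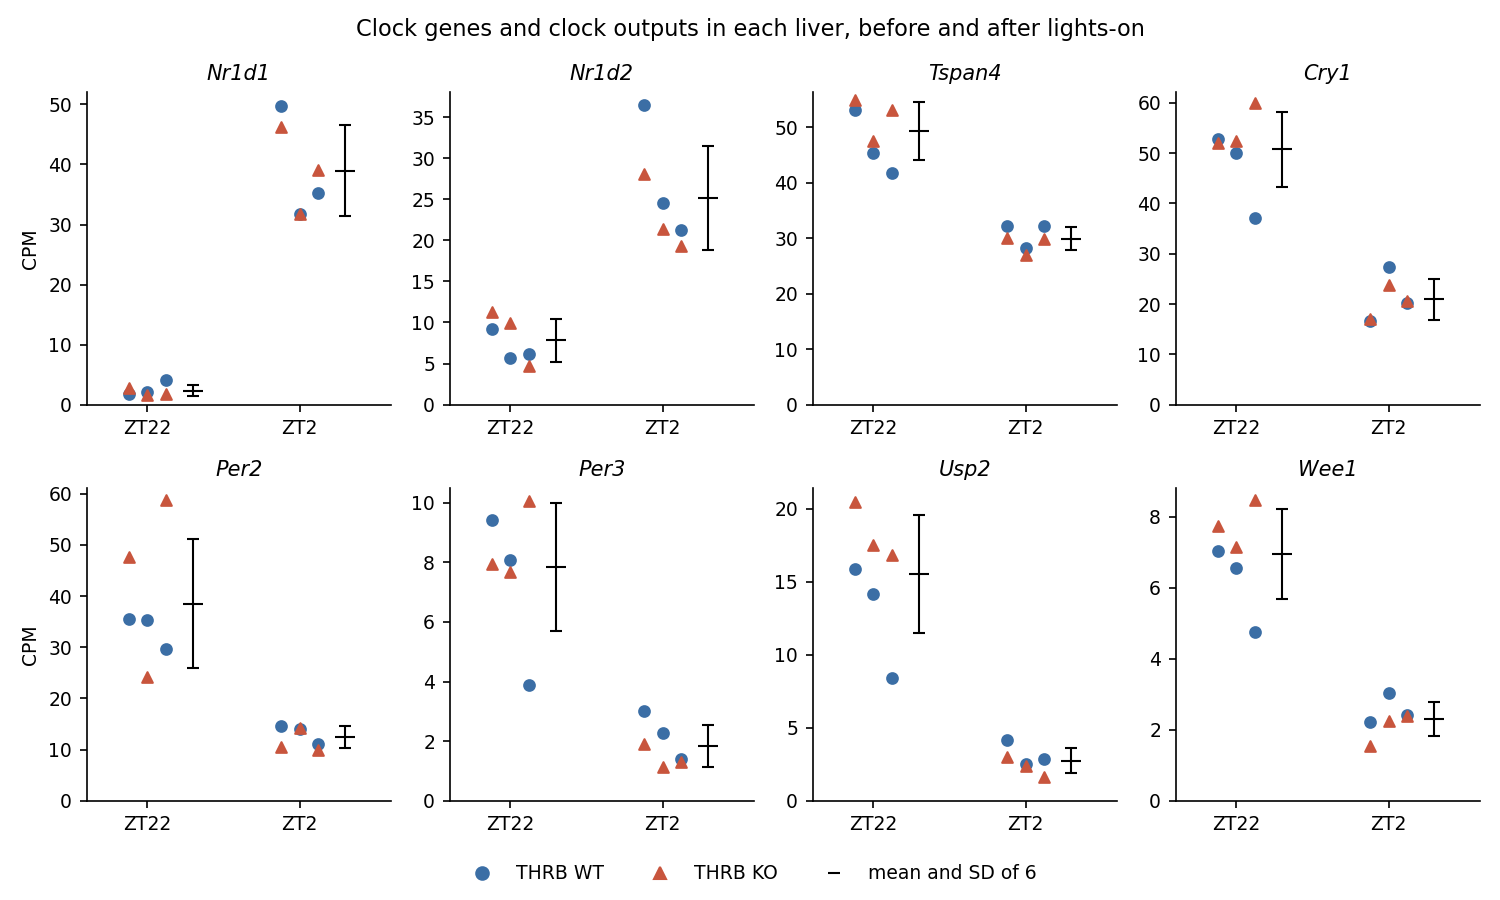
CPM of 8 clock and clock output genes in each of the 12 livers at ZT22 and ZT2; circles are THRB WT, triangles THRB KO, and the black mark is the mean with the SD of 6 livers. The 2 times are fully separated in all 8 genes, with Nr1d1 going from at most 4.12 to at least 31.7 CPM.

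The same livers recurred at the edges of the ranges. For 9 of the 13 called clock genes, THRB WT ZT22 c was the ZT22 liver nearest to the ZT2 livers, and for 6 of the 13 THRB WT ZT2 a was the ZT2 liver nearest to ZT22. In Usp2, for example, THRB WT ZT22 c gave the lowest ZT22 value of 8.44 CPM, and THRB WT ZT2 a the highest ZT2 value of 4.15 CPM.

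The 6 sampling times place these values in the day. Nr1d1 had its lowest mean at ZT22 (2.35 ± 0.97 CPM, SD, n = 6) and its highest 4 h after ZT2, at ZT6 (164 ± 19.7 CPM). Arntl had its highest means at ZT22 and ZT2, 30.2 and 29.9 CPM, against 4.12 CPM at ZT6 and 1.03 CPM at ZT10. Usp2, Per3, Wee1, Tef and Ciart had their lowest means at ZT2 and their highest at ZT10. Over all called genes, those higher at ZT2 peaked at ZT6 (47 of 74), ZT10 (14) or ZT2 (13), and those lower at ZT2 had their lowest mean at ZT6 (54 of 123), ZT2 (47), ZT10 (21) or ZT14 (1). The call itself places these genes on a rising or falling limb between ZT22 and ZT2, so these counts are a description.

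**Figure D2:**
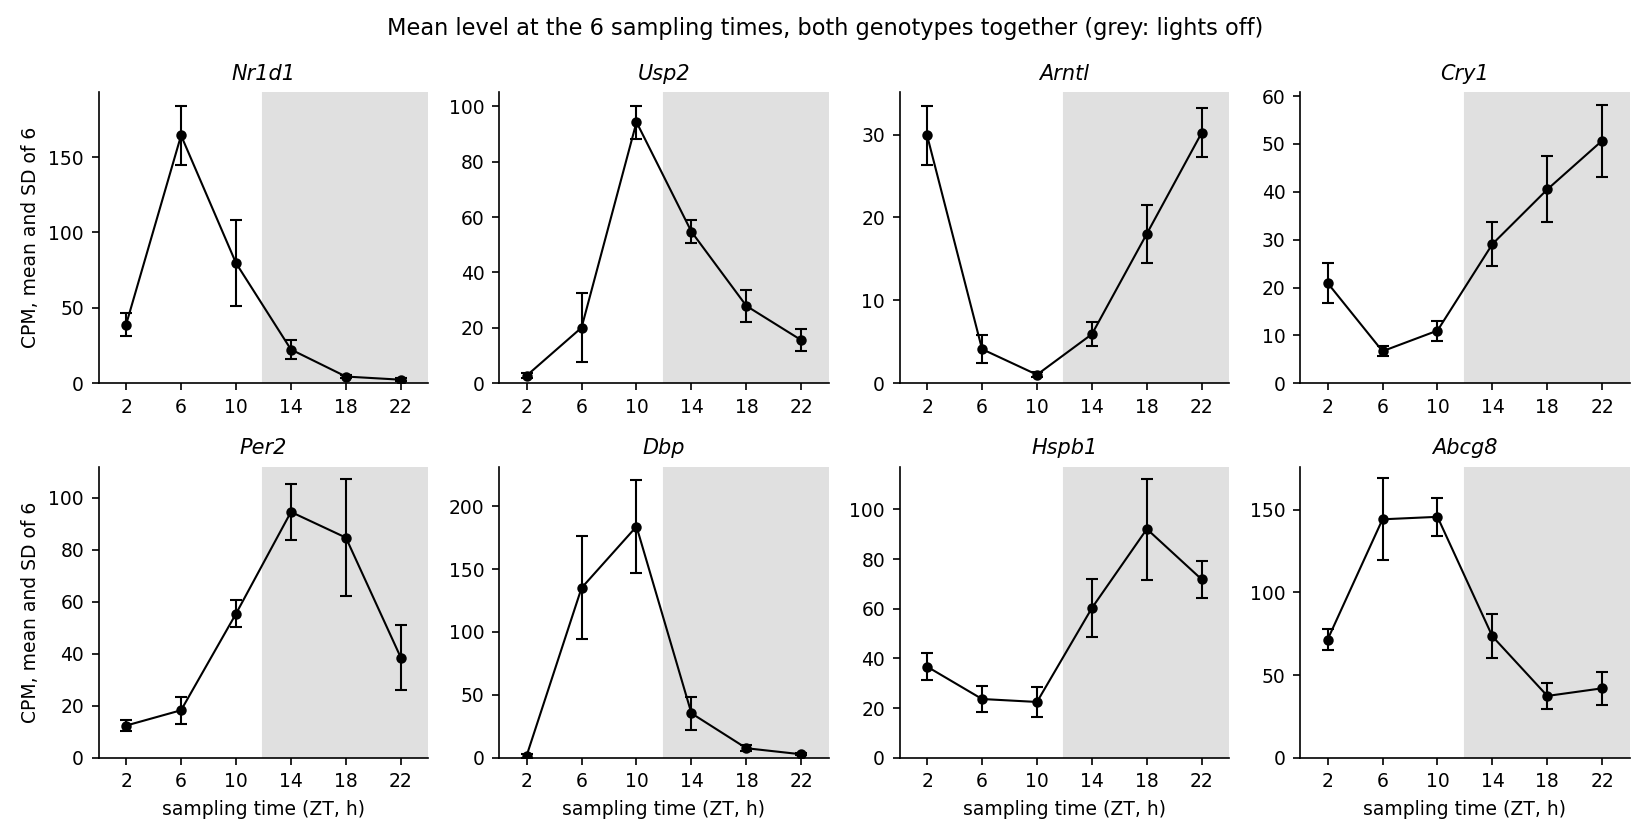
Mean CPM of 8 genes at the 6 sampling times with both genotypes together; bars are the SD of 6 livers and the grey field is the dark phase. Nr1d1 climbs from 2.35 CPM at ZT22 to 164 CPM at ZT6, while Arntl has nearly the same mean at ZT22 and ZT2 (30.2 and 29.9 CPM) and falls afterwards.

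The 12 largest rises by the rule held the REV-ERB genes, the sterol transporter gene Abcg8 (0.76, described below) and 9 further genes. Fbxo32, the muscle atrophy ubiquitin ligase also induced by fasting, rose from 1.15, 1.52 and 2.35 CPM to 2.49, 3.30 and 4.04 CPM (log2 fold change 1.09 ± 0.17, adjusted p = 0.00928, 12 of 12). Abca8b, a lipid transporter gene, rose from 36.2, 45.8 and 49.1 CPM to 65.2, 69.1 and 72.1 CPM (0.63 ± 0.07, adjusted p = 0.0012, 12 of 12). Values at the 2 times were well apart in both genes. Sort1, a sorting receptor that bears on lipoprotein secretion, rose by 0.58 ± 0.09 (adjusted p = 0.00653, 12 of 12), and Flcn, the folliculin gene of nutrient signalling to mTORC1, by 0.59 ± 0.11 (adjusted p = 0.0253, 6 of 12). Lrrc29 (0.65), Zbtb10 (0.67) and the long noncoding or predicted genes Gm36041 (0.94), Gm31333 (0.73) and Hectd2os (1.07) were the others. Zbtb10, Gm31333 and Hectd2os were called in 2 of the 12 left-out fits each, and Lrrc29 and Gm36041 in all. Hectd2os overlaps Hectd2, with no strand to part them.

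Acmsd, the enzyme that diverts tryptophan breakdown away from NAD synthesis, fell in both genotypes. It was at 55.1, 63.6 and 79.7 CPM at ZT22 and at 21.4, 30.5 and 31.6 CPM at ZT2. The lowest ZT22 liver exceeded the highest ZT2 liver by a wide margin, and the change was alike in THRB WT (-1.21) and THRB KO (-1.22). For all livers it was -1.21 ± 0.08 (adjusted p = 5.42e-06, 12 of 12). Acot1, a cytosolic acyl-CoA thioesterase and PPARα target, fell by 1.11 ± 0.18 on the log2 scale (adjusted p = 0.0102, 12 of 12). It has a close paralog, Acot2, between which reads may be split, and Acot2 was not called (-0.42, adjusted p = 0.546). Nat8f6 (-1.74), an N-acetyltransferase family gene, Tnnc1 (-1.603), the slow troponin C, Lingo4 (-2.08), the gene of a leucine-rich repeat membrane protein, and the noncoding C730036E19Rik (-1.07, 11 of 12, lost without THRB KO ZT2 c) were further genes with large falls. Nat8f6 overlaps Nat8f5, a member of the same family that also fell (-1.05, adjusted p = 0.015).

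Bile acid genes moved in both directions. Of 21 tested members, 4 were called higher, 1 lower and 16 not, beside 0.411% and 0.684% over all genes, and the median log2 fold change was 0.19 beside 0.00 over all genes. Those higher were transporters. Abcg8 and Abcg5 are the paired half-transporters that export sterols into bile. Abcg8 rose from 30.4, 40.9 and 58.7 CPM to 64.0, 72.3 and 79.6 CPM (0.76 ± 0.13, adjusted p = 0.0156, 12 of 12). Its partner Abcg5 rose from a median of 33.9 to 56.1 CPM with a narrow overlap (0.65 ± 0.13, adjusted p = 0.0338, 4 of 12). Their annotated spans share 6710 bases. Slco1b2, a bile acid and anion uptake carrier, rose by 0.34 ± 0.06 (adjusted p = 0.0232, 9 of 12), and Abcb11, the bile salt export pump, by 0.32 ± 0.065 (adjusted p = 0.0353, 3 of 12). The gene that fell was Cyp7a1, the rate-limiting enzyme of bile acid synthesis. It ran from 66.2 to 268 CPM at ZT22, with a median of 97.6, and from 24.3 to 101 CPM at ZT2, with a median of 31.5. The livers varied widely and overlapped, and the call (-1.41 ± 0.31, adjusted p = 0.0478) held in 1 of the 12 left-out fits. Cholesterol synthesis, with 25 tested genes, had 0 called and a median of -0.25. Of these, 8 were lower and 0 higher at an unadjusted p below 0.05, beside 1177 lower and 1167 higher of 17994 over all genes.

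**Figure D3:**
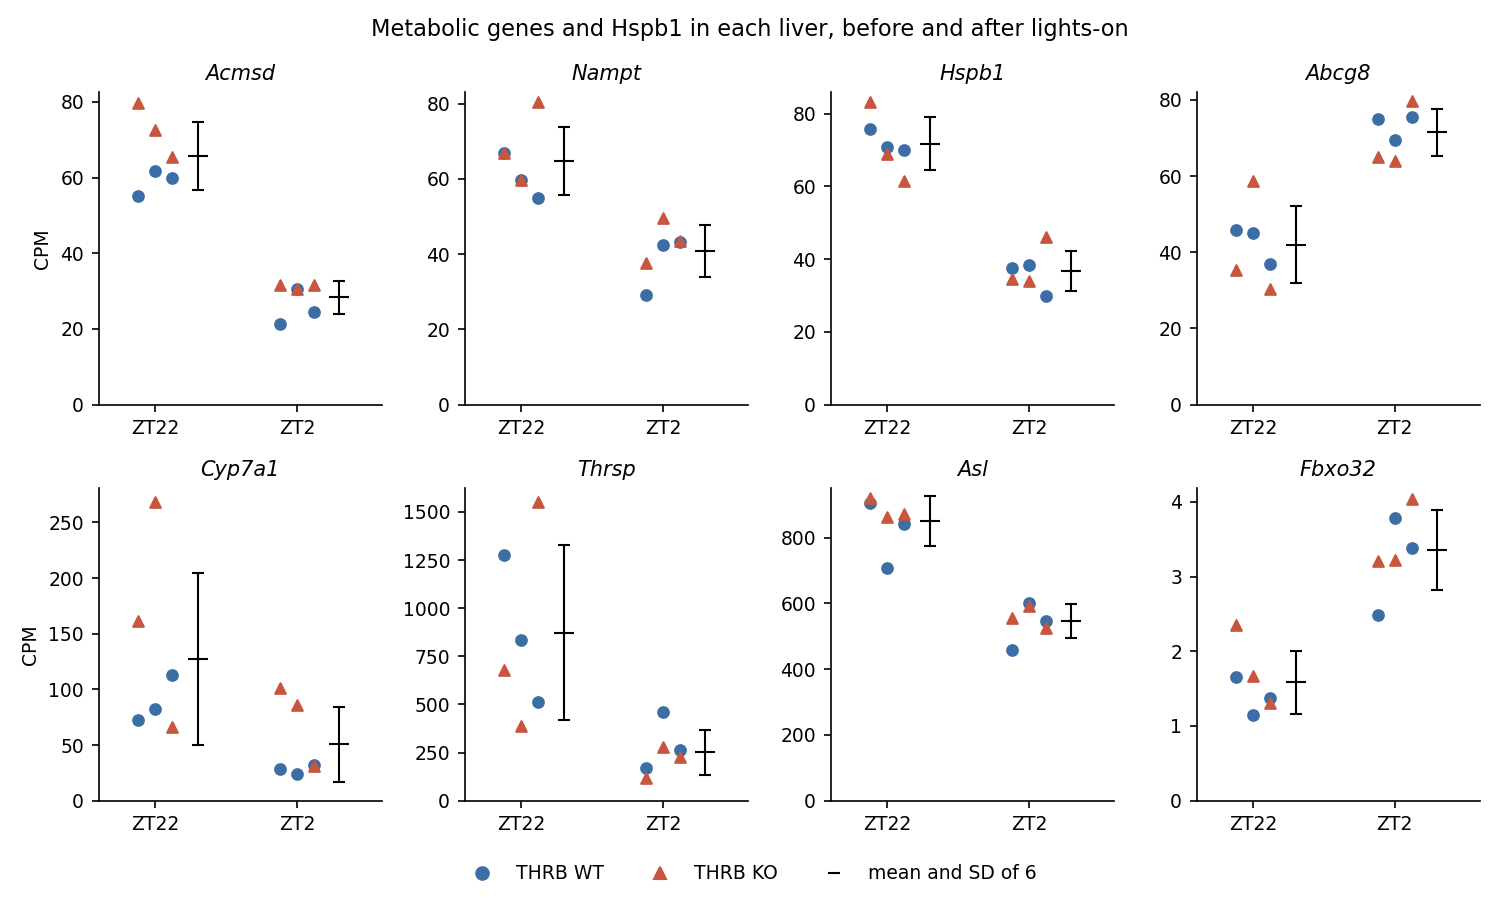
CPM of 8 further genes in each of the 12 livers at ZT22 and ZT2; circles are THRB WT, triangles THRB KO, and the black mark is the mean with the SD of 6 livers. Acmsd, Nampt, Hspb1, Abcg8, Asl and Fbxo32 are separated between the times, while the ranges of Cyp7a1 and Thrsp overlap.

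Each fuel metabolism list held only a few called genes, to be read beside 0.411% called higher and 0.684% called lower over all genes. In lipogenesis, 1 of 23 was called. This was Thrsp (Spot 14), a thyroid hormone and carbohydrate responsive gene, which went from 387, 755 and 1553 CPM to 119, 245 and 458 CPM (-1.81 ± 0.36, adjusted p = 0.0293, 5 of 12). The ranges overlapped and the ZT22 livers spread widely. Thrsp was also the called gene among 14 of the thyroid hormone list. Fasn (-0.69), Acacb (-0.74) and Elovl6 (-0.63) did not pass. In glucose metabolism 2 of 17 were called, both lower. Pfkfb1, the bifunctional enzyme that sets fructose 2,6-bisphosphate, fell by 0.92 ± 0.16 (adjusted p = 0.0161, 11 of 12, lost without THRB KO ZT2 c). Gys2, liver glycogen synthase, fell by 0.36 ± 0.08 (adjusted p = 0.0416, 3 of 12), 1 of 17 glycogen genes. Among 33 genes of fatty acid oxidation and ketogenesis, Bdh1, a ketone body dehydrogenase, rose from 128, 152 and 165 CPM to 191, 203 and 206 CPM (0.42 ± 0.06, adjusted p = 0.00759, 12 of 12), whereas Acot1 and the lipid droplet gene Plin5 (-0.46 ± 0.09, adjusted p = 0.0276, 4 of 12) fell. Asl, the urea cycle enzyme argininosuccinate lyase, fell from 708, 867 and 920 CPM to 460, 550 and 602 CPM (-0.64 ± 0.08, adjusted p = 0.00121, 12 of 12) and was the called gene among 29 of amino acid metabolism.

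Further lists gave few called genes each, beside 0.411% called higher and 0.684% called lower over all genes. Klf11, of the insulin and fasting list, rose by 0.89 ± 0.17 (adjusted p = 0.0253, 7 of 12), and Junb, the called gene of 22 immediate early genes, by 0.77 ± 0.16 (adjusted p = 0.0411, 2 of 12). Fos, Egr1 and Atf3 of that list did not pass. Autophagy genes Gabarapl1 (0.54 ± 0.12, adjusted p = 0.044, 3 of 12) and Atg13 (0.40 ± 0.08, adjusted p = 0.0276, 4 of 12) rose, while the mitophagy receptor Bnip3 fell (-0.42 ± 0.07, adjusted p = 0.0186, 11 of 12, lost without THRB KO ZT2 c), 3 of 29 in all. Cyp2a5, a coumarin hydroxylase, fell by 1.39 ± 0.28 (adjusted p = 0.0293, 6 of 12) with overlapping values, and Ces1d, a carboxylesterase, by 0.58 ± 0.13 (adjusted p = 0.0445, 1 of 12), 2 of 31 xenobiotic genes. Cyp2a5 has a near-identical neighbour, Cyp2a4, between which the counting may split reads. Mcm2, a replication helicase subunit, fell by 0.75 ± 0.16 (adjusted p = 0.0411, 2 of 12), 1 of 2 called among 23 cell cycle genes beside Wee1. Eif4ebp3, a translation repressor, fell by 1.19 ± 0.26 (adjusted p = 0.044, 2 of 12). The unfolded protein response, glucocorticoid response, ribosome biogenesis, growth hormone, acute phase, interferon and ribosomal protein lists and the cold-inducible pair Cirbp and Rbm3 had 0 called by edgeR. At an unadjusted p below 0.05, 3 of 25, 4 of 15, 3 of 34, 1 of 19, 9 of 27, 6 of 25, 0 of 77 and 1 of 2 of these genes were seen, beside 2344 of 17994 over all genes. DESeq2 called 2 acute phase genes, 1 interferon gene and 1 of cholesterol synthesis, and 0 of the unfolded protein response, glucocorticoid, ribosome biogenesis, growth hormone, ribosomal protein and cold-inducible genes.

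Heat shock chaperone genes that passed the test at lights-on all fell. Of 25 tested, 5 were called lower, 0 higher and 20 not, beside 0.684% lower and 0.411% higher over all genes, and the median log2 fold change was -0.08 beside 0.00. Hspb1 led them, with 61.5, 70.5 and 83.3 CPM at ZT22 and 29.9, 35.97 and 46.1 CPM at ZT2 (-0.97 ± 0.10, adjusted p = 0.000395, 12 of 12). The highest ZT2 liver stayed below the lowest ZT22 liver. Hspa4l, an HSP110 family nucleotide exchange factor, fell from 25.3, 28.4 and 34.7 CPM to 11.6, 17.5 and 21.5 CPM (-0.73 ± 0.12, adjusted p = 0.0128, 12 of 12). Fkbp4, an HSP90 cochaperone of steroid receptors, fell by 0.38 ± 0.07 (adjusted p = 0.0276, 3 of 12). Hsp90ab1, the constitutive HSP90 (-0.31, adjusted p = 0.0448, 1 of 12), and Hspd1, the mitochondrial HSP60 (-0.25, adjusted p = 0.0298, 2 of 12), changed less. Leaving out a library left between 2 and 5 of the list called, with Hspb1 and Hspa4l in every fit. The inducible Hspa1a (0.48, adjusted p = 0.72) and Hspa1b (0.83, adjusted p = 0.24) had positive, uncalled values. The heat shock element was in the promoters of 11 of 20 listed genes with a promoter in the table, against 9.04% of all genes, and among the called genes in Hspb1, Hspd1 and Fkbp4.

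Lights-off, ZT14 against ZT10, was the like step at the other end of the day, with 12 other livers. More genes were called there, and 1728 genes were higher at ZT14, 9.6% of those tested, and 1657 were lower, 9.21%. The lights-off test took its spread from 24 libraries and the lights-on test from 12. The numbers called at each step are therefore not on equal terms. The difference between the steps, (ZT2 minus ZT22) minus (ZT14 minus ZT10), was called for 3119 genes, 17.3%. Of the 74 genes higher at lights-on, 57 were lower at lights-off, 1 was higher (Nhsl1) and 16 were not called, and for 69 the steps differed. Of the 123 genes lower at lights-on, 61 were higher at lights-off, 57 were not called, and 5 were lower again, with 110 differing. These genes were chosen by their lights-on change, which is part of the difference of steps. That choice favours the counts of 69 and 110. The 5 that fell at both steps were Usp2, Per3, Wee1, Tef and Ciart, all members of the clock lists. For Tef the steps did not differ by the test (adjusted p = 0.393), and for Ciart the adjusted p of the difference was 0.0487.

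Heat shock genes rose at lights-off. At lights-off 19 of 25 were called higher and 0 lower, beside 9.6% higher and 9.21% lower over all genes. The median log2 fold change was 0.70, beside -0.01 over all genes. For 18 of 25 the steps differed, beside 17.3% of all genes. Hspb1 changed by 1.43 at lights-off against -0.97 at lights-on (adjusted p of the difference 7.97e-08). For Arntl, which had nearly the same mean at ZT22 and ZT2, the change at lights-off was 2.50 (adjusted p = 1.09e-08). Cry1 (1.40) rose at lights-off, and Nr1d1 (-1.82), Nr1d2 (-1.07) and Abcg8 (-0.99) fell. Among genes with a mean of at least 50 counts over the 24 libraries of both steps, the largest called positive differences of steps were those of Nr1d1, the urinary protein gene Mup10, the C-type lectin gene Clec2h, the glutathione-degrading enzyme gene Chac1 and the G protein regulator gene Rgs16. Of these, Clec2h (1.47 ± 0.32, adjusted p = 0.0441, 1 of 12) and Chac1 (1.51 ± 0.33, adjusted p = 0.0448, 2 of 12) were also called at lights-on. Rgs16 (0.48 at lights-on, -2.93 at lights-off) and Mup10 (2.54 and -3.40) were not, and Mup10 belongs to a family of near-identical genes. With the same minimum, on the negative side stood the lipase gene Pnpla3 (-1.05 and 2.31), the chloride channel family gene Clic3 (-0.62 and 2.66), the cell cycle inhibitor gene Cdkn1a (-0.76 and 2.43), G0s2 (-0.82 and 2.30), an inhibitor of lipolysis, and Tnnc1 (-1.603 and 1.74). Of these Tnnc1 was called at lights-on, and Cdkn1a was called there without THRB KO ZT2 b.

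**Figure D4:**
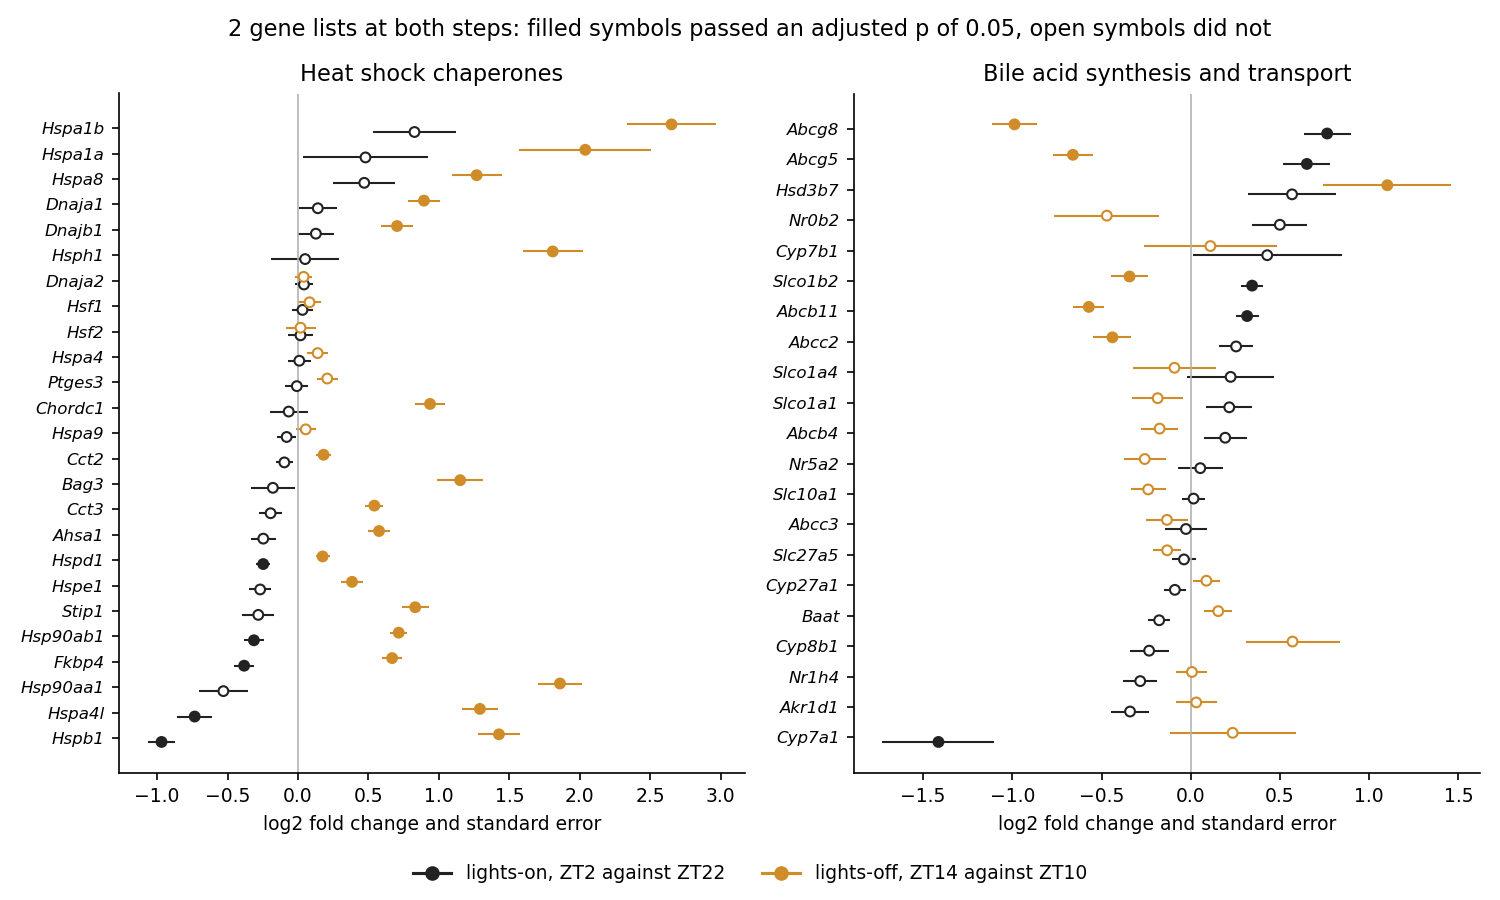
Log2 fold change with its standard error for the 25 heat shock chaperone genes and the 21 bile acid genes, at lights-on (black) and lights-off (orange); filled symbols passed an adjusted p of 0.05. At lights-off 19 heat shock genes were higher, beside 9.6% of all genes, and at lights-on 5 were lower, beside 0.684%. The sterol and bile salt transporters Abcg8, Abcg5, Slco1b2 and Abcb11 point in opposite directions at the 2 steps.

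**Figure D5:**
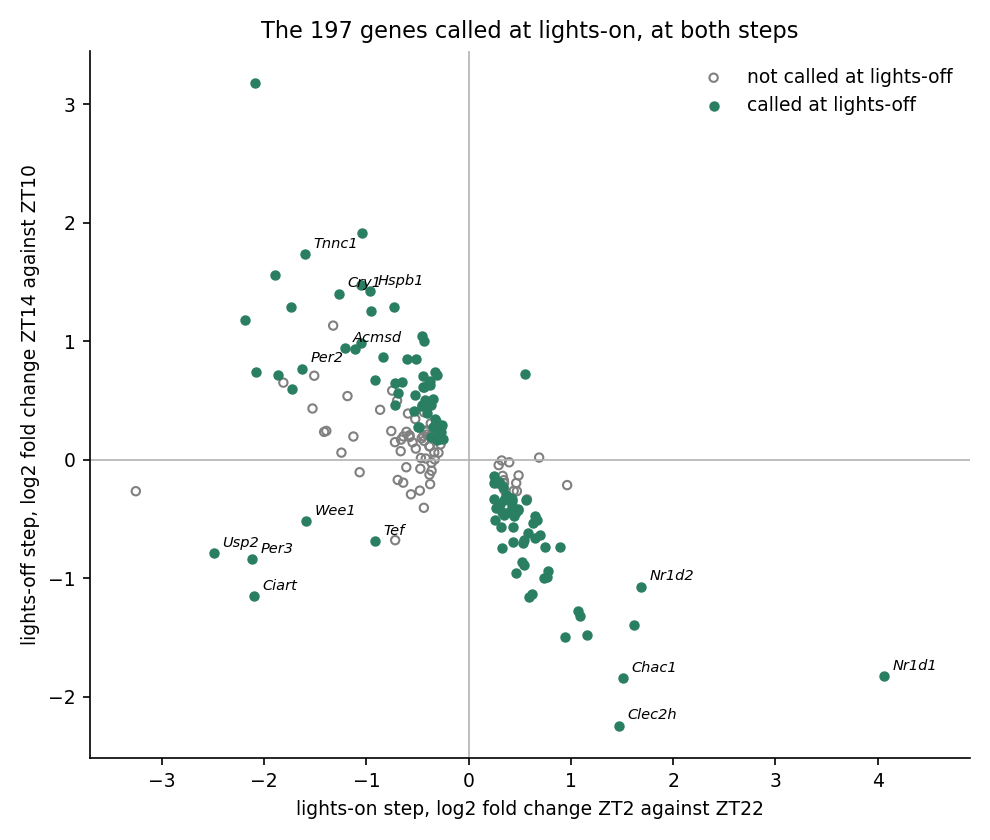
The 197 genes called at lights-on, with their log2 fold change at lights-on (horizontal axis) and at lights-off (vertical axis); filled points were also called at lights-off. Of the 74 genes to the right, 57 were lower at lights-off, and the 5 filled points at the lower left are Usp2, Per3, Wee1, Tef and Ciart.

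Within each genotype, with 3 mice at each time, few genes passed. In THRB WT 5 genes were called, 0.0278% of those tested, 1 higher and 4 lower, and in THRB KO 21, 0.117%, 3 higher and 18 lower. The 5 genes called in THRB WT were called in THRB KO too, among them Nr1d1, Usp2, Acmsd and Hspb1. Nr1d1 changed by 3.84 in THRB WT and by 4.29 in THRB KO. Usp2 changed by -2.02 and -2.97. All 197 genes called over both genotypes had the same sign in each, which the call over both favours. The interaction of genotype and time was called for 0 genes (0%) by edgeR and for 0 by DESeq2, and 443 genes had an unadjusted p below 0.05 by edgeR. Among the 197 called genes, 5 had such an unadjusted p, and the difference of the step (THRB KO minus THRB WT) lay between -1.19 and 1.70 on the log2 scale with a median of 0.02. For Nr1d1 it was 0.45 ± 0.41 (standard error), close to its own standard error. Among the genes with the smallest interaction p were Rpl34-ps1, Gm5456, Thsd1 and Pdzd2, each with an adjusted p of 1.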

How the data were processed

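Poly-A RNA of 36 livers was sequenced as non-directional paired-end libraries. After read cleaning the authors mapped pairs to GRCm38/mm10 with HISAT2, counted reads per gene with featureCounts and deposited raw counts of 54532 genes as whole numbers; versions and the treatment of multi-mapping reads are not given in the sources used here. Counts were scaled by TMM over all 36 libraries. Genes reaching 100 counts over the 36 libraries were tested by the quasi-likelihood test of edgeR 4.0.16 (R 4.3.3, limma 3.58.1) on 12 libraries with genotype as covariate, and on 24 for lights-off and the difference of steps. The Benjamini-Hochberg threshold was 0.05, and the standard error is the log2 fold change over the square root of F. CPM use TMM library sizes, except the summed CPM of cell type markers, which use the raw library totals. P-values weigh a difference of means against the spread between mice. The rule named the 12 largest rises and falls among called genes with a mean of at least 50 counts and separate values, all tested clock members, up to 3 called genes per direction of other lists, the 5 smallest interaction p-values and the 5 largest called differences of steps each way with a mean of at least 50 counts over 24 libraries. The comparison, lists and tests were chosen with earlier results of these data known. The test was checked on simulated counts. Some genes that the rule named are not reported here. Alternatives were DESeq2 1.42.0, other scaling and filters, robust estimation, all 36 libraries, replicate blocks and leaving out each library.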

Additional observations from a re-analysis of the deposited data

Results flagged for a closer look

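Within the 6 livers of a time, 1 stood apart by Dixon's gap test (5% level) in 10 of 168 gene and time groups examined, where chance gives about 1 in 20. THRB KO ZT22 c was the highest ZT22 liver for Tnnc1 (5.68 CPM, the next at 4.05), Ciart (2.64 CPM, the next at 1.51) and Pnpla3 (10.4 CPM, the next at 2.22). THRB KO ZT2 b was the highest ZT2 liver for Per1 (20.4 CPM, the next at 8.21) and Noct (32.2 CPM, the next at 13.3). THRB WT ZT2 b was the highest for Mup10 at 285.7 CPM, with a median of 16.6 CPM. The lowest livers standing apart were THRB WT ZT2 a for Nfil3 (31.0 CPM), THRB KO ZT22 a for Gm36041 (4.09 CPM), THRB WT ZT22 c for Lonrf3 (0.818 CPM) and THRB WT ZT22 b for Asl (707.8 CPM).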

How the results depend on the processing

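The count of 74 higher and 123 lower genes became 247 and 315 with the Wald test of DESeq2 (194 of the 197 genes among them), 122 and 188 without the filter, 71 and 122 with the size factors of DESeq2, and 132 higher with all 36 libraries in the fit. Leaving out a library gave 20 to 75 higher and 47 to 122 lower genes. Within THRB WT (5) the count was 73 by DESeq2, 42 without the filter, 12 with robust estimation and 3 to 9 with a library left out; within THRB KO (21) it was 139, 84, 12 with size factors of DESeq2 and 7 to 24. The cause of these moves was not tested. The interaction count of 0 became at most 1, without THRB KO ZT22 c. The counts for lights-off and for the difference of steps stayed within 1.5 times. Within a genotype, the correlation of deviations from the group mean was computed between each ZT22 and each ZT2 mouse. The correlations ran from -0.211 to 0.341 for mice of the same letter and from -0.279 to 0.327 for different letters. In THRB WT all lay between -0.074 and 0.09. Mice of the same letter and time but different genotype were not compared in this way, so what a letter stands for was not settled. The numbers in the sample descriptions lay apart at the 2 times within each letter. At ZT2 they were 240441 and 240440 (a), 249643 and 249645 (b), and 255114 and 255112 (c). At ZT22 they were 245009 and 245008, 247955 and 247956, and 252546 and 252476. What these numbers follow is not given. A difference between such series cannot be told apart from time, and the blocks below cannot remove it. A replicate block of 6 pairs gave 30 higher and 67 lower genes, 8 in THRB WT, 11 in THRB KO and 1 interaction; a block by letter alone gave 95 and 154.

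No called named gene changed sign, over 53 genes and 1060 alternative values, of which 242 lost the call. Uncalled genes near 0 did, with a library left out: Rora ran from -0.0817 to 0.0201, Thrb ran from -0.0185 to 0.0879, Clock ran from -0.0228 to 0.0282, Arntl ran from -0.0547 to 0.034, Rpl34-ps1 ran from -0.0979 to 0.117, Thsd1 ran from -0.0442 to 0.12. With the block of pairs Clock was at 0.00015. Depth limits genes of a few CPM, and 3 mice per group limit the interaction.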

Other observations

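Enzymes of cofactor metabolism outside the lists were among the called genes, and these were chosen after their values were seen. Nmrk1, the nicotinamide riboside kinase, fell from 31.1 ± 3.7 to 21.7 ± 3.0 CPM (SD, n = 6; log2 fold change -0.52, edgeR adjusted p = 0.0124), and Nadk, the NAD kinase, from 225 ± 21 to 182 ± 19 CPM (-0.31, adjusted p = 0.0231), beside Acmsd and Nampt. The flavin monooxygenase genes Fmo5 (-0.72, adjusted p = 0.0012), Fmo1 (-0.53, adjusted p = 0.00351) and Fmo2 (-0.70, adjusted p = 0.0356) were also called lower. Erbb4, a neuregulin receptor gene at 0.440 CPM at ZT22 and 1.32 CPM at ZT2, rose without overlap (1.62, adjusted p = 0.0143), but with a mean of 30.2 counts per library. Gm45819, which lies 306 bases from Wee1, had the lowest log2 fold change of the called genes (-3.26, adjusted p = 0.00196), at a mean of under 1 CPM at both times.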
